A study of Bos taurus with 15 samples.

Results

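The genes described here carry glucose into the cells of the embryo, break it down to pyruvate, exchange lactate and pyruvate with the surroundings, and pass pyruvate on to the mitochondria. They were chosen by function, from a list of 35 gene symbols. Of these, 34 had a row in the deposited table of 17259 genes, and 33 had enough counts to be tested among 11578 genes. The exception was SLC16A3, which is given by its counts alone. LDHA, which encodes the muscle-type subunit of lactate dehydrogenase, was not analysed here. All 34 symbols matched the RefSeq annotation of the cattle genome (ARS-UCD2.0), which was used for names alone.

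Poly(A) RNA was measured in bovine (Bos taurus) blastocysts at day 7, in 15 libraries. In the in vivo group (5 libraries) blastocysts were collected from the animal. In the manual and the automatic groups (5 libraries each) the cumulus cells, the follicular cells that surround the oocyte, were removed from zygotes by hand or by an automatic method, and the zygotes were then cultured in SOF medium (a culture medium for cattle embryos) to the same day. The 2 cultured groups together are called in vitro, and they share the culture as well as the removal of the cumulus. The labels give neither breed nor age of the donors, and leave unsaid if a library is 1 blastocyst or several pooled, and whether replicate libraries stem from different cultures or donors. The p-values therefore cover the spread among the sequenced libraries alone, and this may be technical.

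Glycolysis begins with hexose carriers (SLC2A family) and hexokinases, which trap glucose in the cell, and passes through phosphofructokinase, its main point of control. Lower glycolysis makes ATP and ends in pyruvate, which is either turned into lactate by lactate dehydrogenase and moved across the membrane by monocarboxylate carriers (SLC16A family), or taken into mitochondria by the MPC1-MPC2 carrier and oxidised by pyruvate dehydrogenase, which PDK kinases switch off. Early mammalian embryos rely mainly on pyruvate and lactate, and glucose use increases as the blastocyst forms.

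Libraries totalled 17.96 to 41.97 M counts (1 M is 1e6). In 5 of them (in vivo 2, in vivo 4, manual 2, automatic 2 and automatic 4) the number of genes reaching 10 counts was only 6977 to 8547, while it was 9900 to 12611 elsewhere, and these 5 are called low-detection libraries. Mitochondrially encoded transcripts took 8.18% to 14.4% of counts in them and 3.26% to 9.99% in the others. The low-detection libraries touch the members directly: 6 to 8 of the 34 members were at 0 in each, against 0 to 3 in each other library, and 35 of the 50 zeros among the members lay in these 5. The members together took 0.676% to 1.62% of counts in low-detection libraries and 1.26% to 2.66% in the others. By group this share was 1.60% ± 0.556 in vivo, 1.73% ± 0.763 after manual and 1.43% ± 0.430 after automatic denudation (SD, n = 5 each). Values below are CPM (counts per 1e6 counts) on TMM-scaled library sizes, listed for libraries 1 to 5 of a group, group values are mean ± SD over 5 libraries, and log2 differences between groups are ± SE. Transcript lengths were not used here, so levels are compared between libraries and never between genes.

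**Figure D1:**
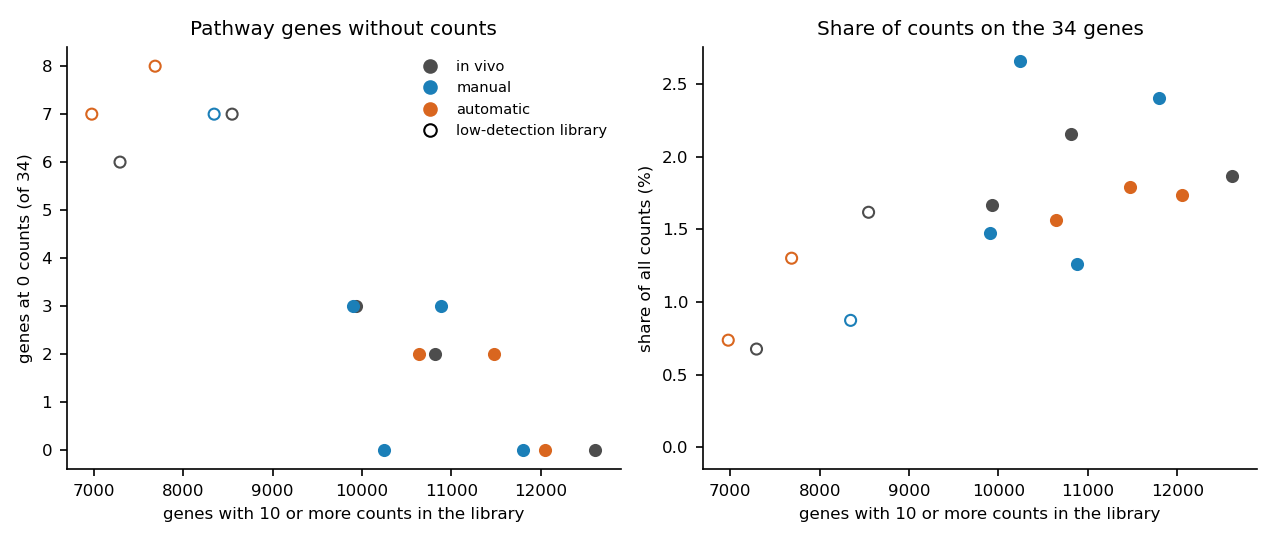
Each point is 1 of the 15 libraries, coloured by group and open for low-detection libraries, with the number of genes that reached 10 counts on the horizontal axes. The left panel gives the members at 0 counts (6 to 8 in the open points, 0 to 3 in the others) and the right panel the percent of all counts on the 34 members, 0.676 to 1.62 in the open points and 1.26 to 2.66 in the others.

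The embryo's own lineage markers were present in every group. The summed level of 10 trophectoderm markers (the outer epithelium) spanned 15507 to 32252 CPM in vivo, 8829 to 35528 in the manual and 5206 to 14860 in the automatic group, and 8 of the 10 were lower in vitro, with a median log2 difference of -0.92. For 5 epiblast markers the sums were 575 to 3339, 530 to 3046 and 556 to 2476 CPM, and for 5 hypoblast markers 205 to 492, 167 to 368 and 243 to 728 CPM, in the same order. Cumulus and granulosa markers (11 of 12 in the table) summed to 20.4 to 224 CPM in vivo, 34.5 to 138 in the manual and 20.8 to 43.2 in the automatic group, and FOXL2 was at 0 in all 15 libraries. Leukocyte markers summed to 0 to 5.61, 0.537 to 20.3 and 1.17 to 9.77 CPM, with PTPRC at 0 throughout. Single markers differed more than these sums. NANOG, an epiblast factor, averaged 264 ± 111 CPM in vivo, 54.5 ± 32.0 in the manual and 49.0 ± 32.3 in the automatic group, with a log2 difference in vitro of -2.35 ± 0.49 (edgeR adjusted p = 0.191). It was the exception in its list, as 4 of the 5 epiblast markers lay higher in vitro, with a median log2 difference of 0.25. The trophectoderm genes PAG2, KRT19 and KRT18 had in vitro differences of -2.27 ± 0.58, -1.84 ± 0.55 and -0.91 ± 0.29 (edgeR adjusted p = 0.323, 0.534 and 0.553), and their reads can be split among close paralogs. Of 27 markers tested, 0 were called in any comparison, and 7 had an unadjusted p under 0.05 in vitro against in vivo (25.9%, against 6.13% of all genes). Of these 7, 5 lay lower and 2 higher in vitro, and those of the trophectoderm list were 4 lower and 1 higher. The part of lineage proportions or accompanying cells in the results below was not tested. In such bulk RNA, fewer cells of a type and less RNA per cell cannot be told apart.

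No member passed the test in any comparison. By edgeR's quasi-likelihood test with Benjamini-Hochberg adjustment over all genes, 0 of 33 members were called in vitro against in vivo, where 2 of 11578 genes were (0.0173%). Counts of called members were also 0 for automatic against manual (0 of 11578 genes, 0%), automatic against in vivo (2 genes, 0.0173%) and manual against in vivo (0 genes, 0%). At an unadjusted p under 0.05 there were 3 members in vitro against in vivo (6.13% of all genes), 1 in automatic against manual (1.48%), 2 in automatic against in vivo (5.36%) and 4 in manual against in vivo (3.39%). As shares of the 33 members these were 9.09%, 3.03%, 6.06% and 12.1%. With DESeq2, 0 members were called in any of the 4 comparisons. Over all 11578 genes DESeq2 called 86 in vitro against in vivo, 9 in automatic against manual, 87 in automatic against in vivo and 44 in manual against in vivo. In limma-voom with quality weights 1 member was called, as given with SLC16A7. That was in vitro against in vivo, where limma-voom called 107 of 11578 genes. The comparisons with in vivo share their in vivo libraries.

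**Figure D2:**
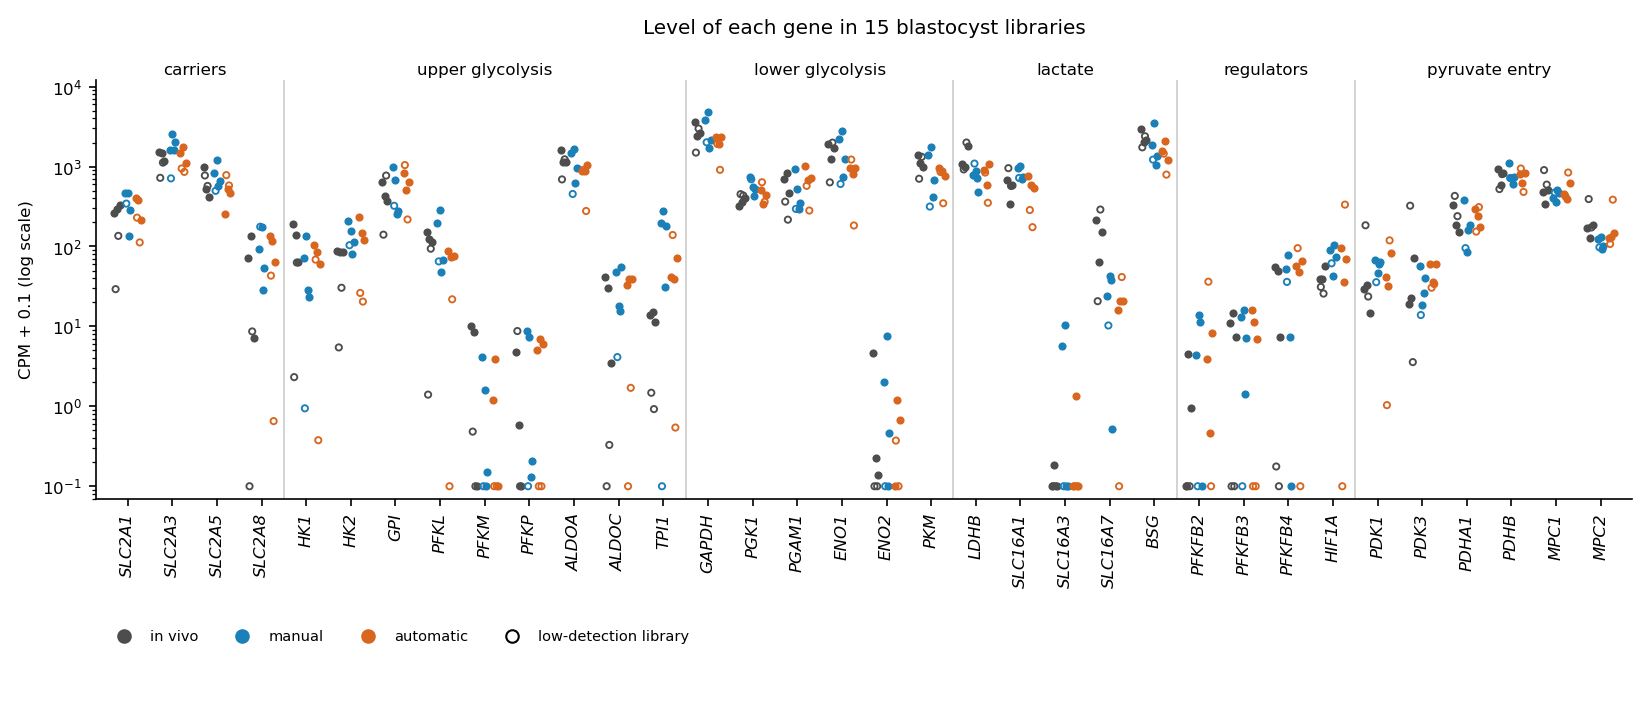
CPM + 0.1 on a log axis for the 34 members, grouped by role, with 1 point per library, coloured by group and open for low-detection libraries. Points at the bottom are zeros, of which 35 of 50 are open, and values are not scaled for transcript length.

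Among the hexose carriers, SLC2A3 (GLUT3, a carrier with high affinity for glucose) took the most counts. It lay at 1522, 723, 1485, 1121 and 1160.5 CPM in vivo, at 1595, 712, 2575, 1603 and 2019 CPM in the manual group, and at 1467, 947, 1771, 858 and 1124 CPM in the automatic group. The 3 groups overlapped, although 4 of 5 manual libraries lay above every in vivo library. SLC2A1 (GLUT1, the basal glucose carrier) averaged 210.0 ± 125, 338 ± 138 and 269.7 ± 125 CPM in vivo, manual and automatic. SLC2A5, a fructose carrier, averaged 653 ± 224, 754 ± 279 and 521 ± 191 CPM in the same order. SLC2A8, a carrier found mainly inside cells, averaged 44.1 ± 57.9, 106 ± 68.8 and 71.7 ± 54.5 CPM, and single libraries spanned 0 to 177 CPM. In vitro, 3 of the 4 carriers lay above and SLC2A5 below their in vivo level, and all 4 lay above it without TMM factors.

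In upper glycolysis, the gene with most counts was ALDOA, the main aldolase. It lay at 1617, 691, 1136, 1232 and 1153 CPM in vivo, at 1481, 454, 1675, 621 and 973 CPM in the manual group, and at 874, 909, 875, 278 and 1038 CPM in the automatic group. The lowest library of each group was a low-detection library. ALDOC, its brain-type paralog, averaged 15.0 ± 19.3, 27.97 ± 22.04 and 22.5 ± 20.02 CPM and was at 0 in 2 libraries. GPI, which isomerises glucose phosphate, averaged 468 ± 245, 508 ± 324 and 649 ± 314 CPM. HK1 and HK2, the widely expressed and the inducible hexokinase, averaged 91.1 ± 72.8 and 58.6 ± 38.3 CPM in vivo, 51.5 ± 52.4 and 133 ± 51.1 CPM in the manual group, and 63.5 ± 39.3 and 110.0 ± 89.6 CPM in the automatic group. Of the phosphofructokinases, the liver-type PFKL averaged 96.4 ± 56.9, 132 ± 103 and 51.9 ± 38.6 CPM, the muscle-type PFKM 3.79 ± 5.05, 1.12 ± 1.77 and 0.983 ± 1.66 CPM, and the platelet-type PFKP 2.75 ± 3.83, 3.25 ± 4.42 and 3.54 ± 3.31 CPM. PFKM was at 0 in 7 libraries and PFKP in 5, and the SD exceeded the mean in every group for both, except for PFKP in the automatic group.

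TPI1, which interconverts the 2 triose phosphates, had the largest positive difference of the 33 tested members in vitro against in vivo, without passing the test. It lay at 13.6, 1.38, 15.0, 0.823 and 11.1 CPM in vivo, at 196, 0, 281, 31.2 and 179 CPM in the manual group, and at 41.3, 139, 39.4, 0.442 and 72.2 CPM in the automatic group. In vitro, 8 of 10 libraries lay above the highest in vivo library, and the other 2, manual 2 and automatic 4, lay below the lowest and are low-detection libraries. The log2 difference in vitro against in vivo was 3.42 ± 1.32 (SE), with a 95% interval of 0.65 to 6.18 (edgeR adjusted p = 0.696). It was 4.03 ± 1.43 for manual (edgeR adjusted p = 0.9997) and 2.80 ± 1.35 for automatic against in vivo (edgeR adjusted p = 0.937). With limma-voom and quality weights the in vitro difference was 2.48 (limma-voom unadjusted p = 0.134, adjusted p = 0.574). Without the 5 low-detection libraries the in vitro difference was 2.82 ± 0.57 (edgeR adjusted p = 0.177), with 11.1 to 15.0 CPM in 3 in vivo libraries and 31.2 to 281 CPM in 7 in vitro libraries. Those 2 sets of libraries did not overlap, as for 4.14% of all genes, and the libraries left out include manual 2 and automatic 4. In that smaller set automatic against manual was -1.74 ± 0.57 (edgeR adjusted p = 1). Manual against in vivo was then 3.69 ± 0.63 (edgeR adjusted p = 0.134) and automatic against in vivo 1.95 ± 0.60 (edgeR adjusted p = 0.484). TPI1, GAPDH, PGK1 and LDHB belong to gene families with close copies elsewhere in mammalian genomes, and estimated counts divide shared reads among such copies, so their values are less certain.

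In lower glycolysis, GAPDH, which makes NADH as it oxidises triose phosphate, took the most counts. It lay at 3576, 1497, 2417, 2989.7 and 2636 CPM in vivo, at 3870.1, 2012, 4884, 1691 and 2151 CPM in the manual group, and at 2317, 1919, 1939, 911 and 2364 CPM in the automatic group. All 5 automatic libraries lay below 4 of the 5 in vivo libraries, and the groups overlapped. ENO1, the widely expressed enolase, lay at 1896, 635, 1236, 1993 and 1730.5 CPM in vivo, at 2229, 606, 2774, 747 and 1243 CPM in the manual group, and at 963, 1224, 805, 183 and 970.3 CPM in the automatic group. The automatic libraries all lay below the same 4 in vivo libraries for ENO1 too, and 3 of 5 manual libraries lay above all automatic ones. PGK1 and PKM make the ATP of the pathway: PGK1 averaged 394 ± 53.3, 589 ± 126 and 457 ± 121 CPM and PKM 1103 ± 277, 911 ± 632 and 759.6 ± 241 CPM. PGAM1, the phosphoglycerate mutase between them, averaged 512 ± 245, 479.8 ± 273 and 654 ± 266 CPM. ENO2, the neuronal enolase, reached at most 7.49 CPM in any library and was at 0 in 6 of 15.

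Most glycolytic members lay lower in the automatic than in the manual group, and none passed the test. Trophectoderm markers lay the same way in this comparison, 9 of 10 lower with a median of -0.98 and 4 with an unadjusted p under 0.05 (1.48% of all genes), and their part in the members' values was not tested. The 3 members with the smallest p were SLC16A1 (described with the lactate carriers), GAPDH and ENO1. For GAPDH the log2 difference was -0.63 ± 0.34 (edgeR adjusted p = 0.9999), and for ENO1 it was -0.87 ± 0.48 (edgeR adjusted p = 0.9999). Manual 3 was the highest library for both genes, and without it the differences were -0.35 and -0.53. Over all members, 21 of 33 were lower in the automatic group and the median was -0.20, against 52.9% of all genes and a median of -0.05. Leaving out single libraries gave 17 to 23 members lower and medians from -0.39 (without manual 4) to -0.03 (without manual 1 or manual 3), with -0.06 without automatic 4. By role, all 4 carriers, 6 of 9 upper and 5 of 6 lower glycolytic members and all 4 lactate members were lower, while 3 of 4 regulators and 5 of 6 pyruvate entry members were higher, but these counts moved with the libraries used and the fit: without the low-detection libraries 2 of 4 carriers and 3 of 9 upper glycolytic members were lower, and with limma-voom and quality weights 2 of 4 carriers, 3 of 9 upper glycolytic and 2 of 4 lactate members were lower and the median over the members was 0.11.

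**Figure D3:**
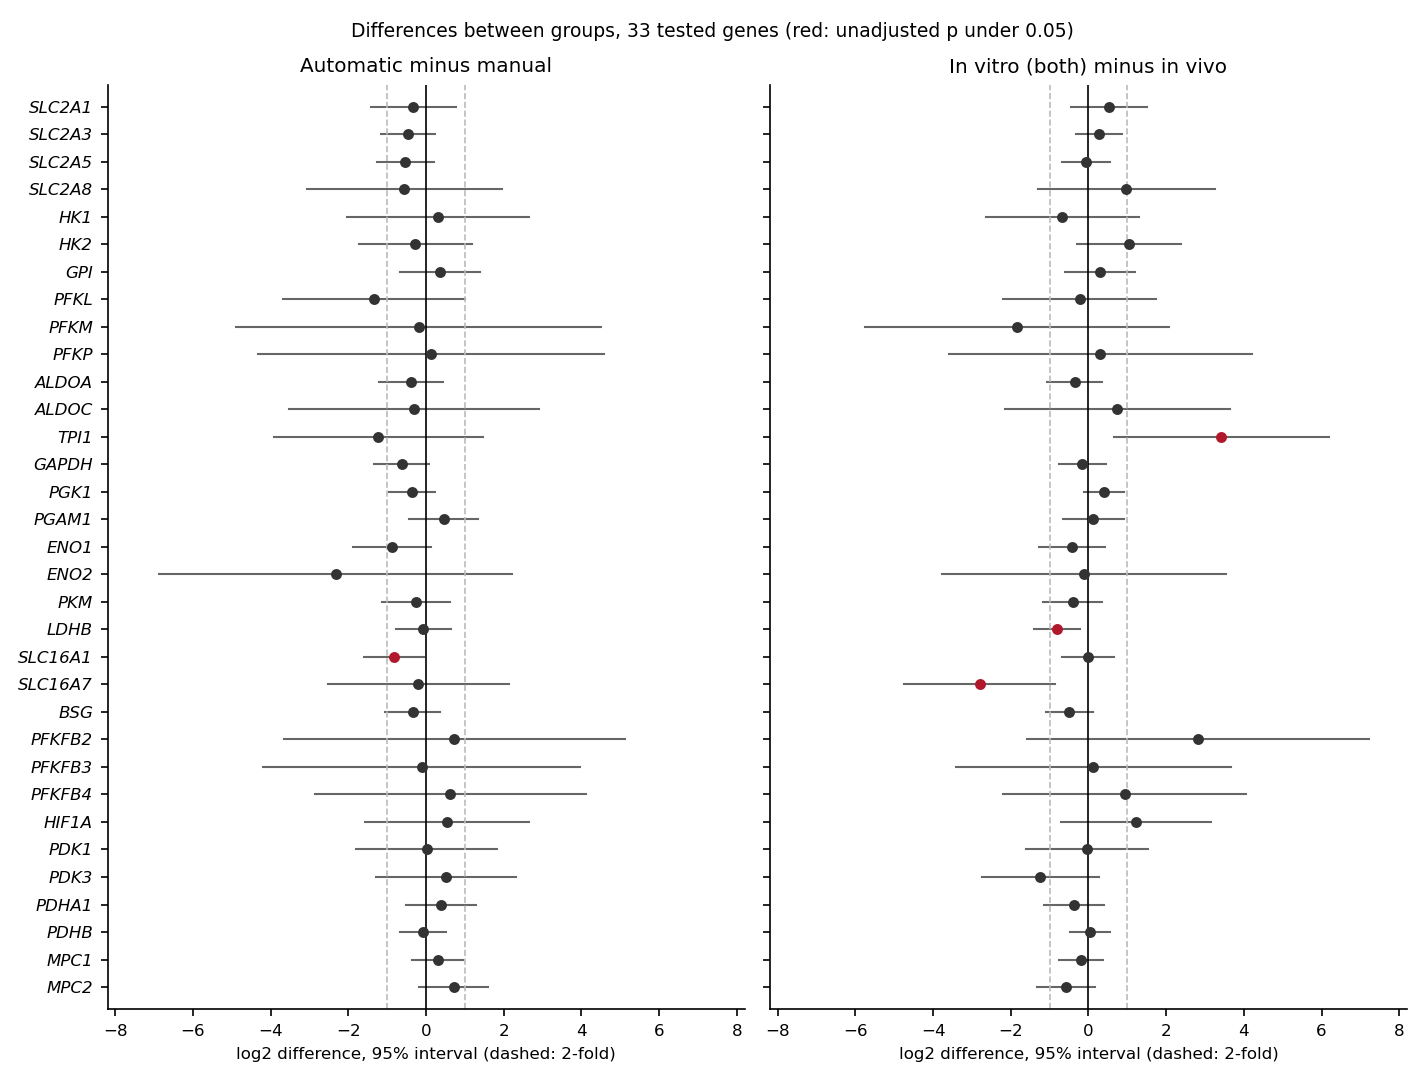
Log2 differences of the 33 tested members (points) with 95% intervals from edgeR (lines), automatic minus manual on the left and in vitro minus in vivo on the right, with dashed lines at 2-fold. Red points, SLC16A1 on the left and TPI1, LDHB and SLC16A7 on the right, have an unadjusted p under 0.05, and none passed after adjustment.

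Among genes of lactate and pyruvate exchange, SLC16A7 and LDHB were the members with the smallest p of the in vitro comparison, and both lay lower in vitro. SLC16A7 (MCT2), a monocarboxylate carrier with high affinity for pyruvate and lactate, lay at 214, 20.6, 63.9, 289.8 and 153 CPM in vivo, at 23.7, 10.2, 42.1, 37.5 and 0.421 CPM in the manual group, and at 15.97, 0, 20.8, 41.4 and 20.9 CPM in the automatic group. In vivo, 4 of 5 libraries lay above every in vitro library, and the fifth, in vivo 2, is a low-detection library. The log2 difference in vitro against in vivo was -2.80 ± 0.93, with a 95% interval of -4.75 to -0.86 (edgeR adjusted p = 0.553). It was -2.70 ± 1.18 for manual (edgeR adjusted p = 0.9997) and -2.90 ± 1.19 for automatic against in vivo (edgeR adjusted p = 0.814). SLC16A7 was the only member called under any setting: limma-voom with quality weights gave -3.23 (adjusted p = 0.0417). The same fit called 107 of 11578 genes in this comparison. Without the low-detection libraries the difference was -2.69 ± 0.75 (edgeR adjusted p = 0.326), from 63.9 to 214 CPM in 3 in vivo libraries and 0.421 to 42.1 CPM in 7 in vitro libraries, which did not overlap. In that set 4.14% of all genes did not overlap, and the libraries left out include in vivo 2. Leaving out each of the 15 libraries in turn gave -3.08 to -2.42, the weakest without in vivo 4.

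LDHB, the heart-type subunit of lactate dehydrogenase, lay at 1071, 921, 989, 1999 and 1800.2 CPM in vivo, at 781, 1089.9, 893, 728 and 482 CPM in the manual group, and at 908, 842, 588, 352 and 1074 CPM in the automatic group. In vitro, 8 of 10 libraries lay below the lowest in vivo library, with manual 2 and automatic 5 above it. The log2 difference in vitro against in vivo was -0.81 ± 0.28 (edgeR adjusted p = 0.591). It was -0.77 ± 0.34 for manual (edgeR adjusted p = 0.9997) and -0.85 ± 0.34 for automatic against in vivo (edgeR adjusted p = 0.801). Without in vivo 4, a low-detection library with the highest value, the in vitro difference was -0.60, with an unadjusted p above 0.05.

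SLC16A1 (MCT1), the widely expressed monocarboxylate carrier, lay at 681, 956, 341, 572 and 594 CPM in vivo, at 956, 721, 1013, 706 and 736 CPM in the manual group, and at 758, 286, 582, 174 and 541 CPM in the automatic group. In 4 of 5 automatic libraries it lay below every manual library. The log2 difference of automatic against manual was -0.82 ± 0.37 (edgeR adjusted p = 0.9999), and without the low-detection libraries it was -0.42 (adjusted p = 1). In vitro against in vivo, as the mean of both cultured groups, SLC16A1 was bounded within 2-fold by its 95% interval. Against in vivo its difference was 0.39 ± 0.37 for manual and -0.43 ± 0.37 for automatic, and neither was bounded within 2-fold. BSG (basigin), which chaperones MCT1 and MCT4 to the membrane, lay at 2982, 1740.4, 2019, 2396 and 2127 CPM in vivo, at 1879, 1222, 3533, 1037 and 1369 CPM in the manual group, and at 1552, 1451, 2088, 793 and 1221 CPM in the automatic group. In vitro, 7 of 10 libraries lay below the lowest in vivo library, and manual 3 lay above the highest. SLC16A3 (MCT4), the lactate exporter of glycolytic cells, had counts in 4 of 15 libraries: 0.0818 CPM in in vivo 3, 5.56 and 10.2 CPM in manual 1 and 3, and 1.26 CPM in automatic 3. All 4 are outside the low-detection set.

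**Figure D4:**
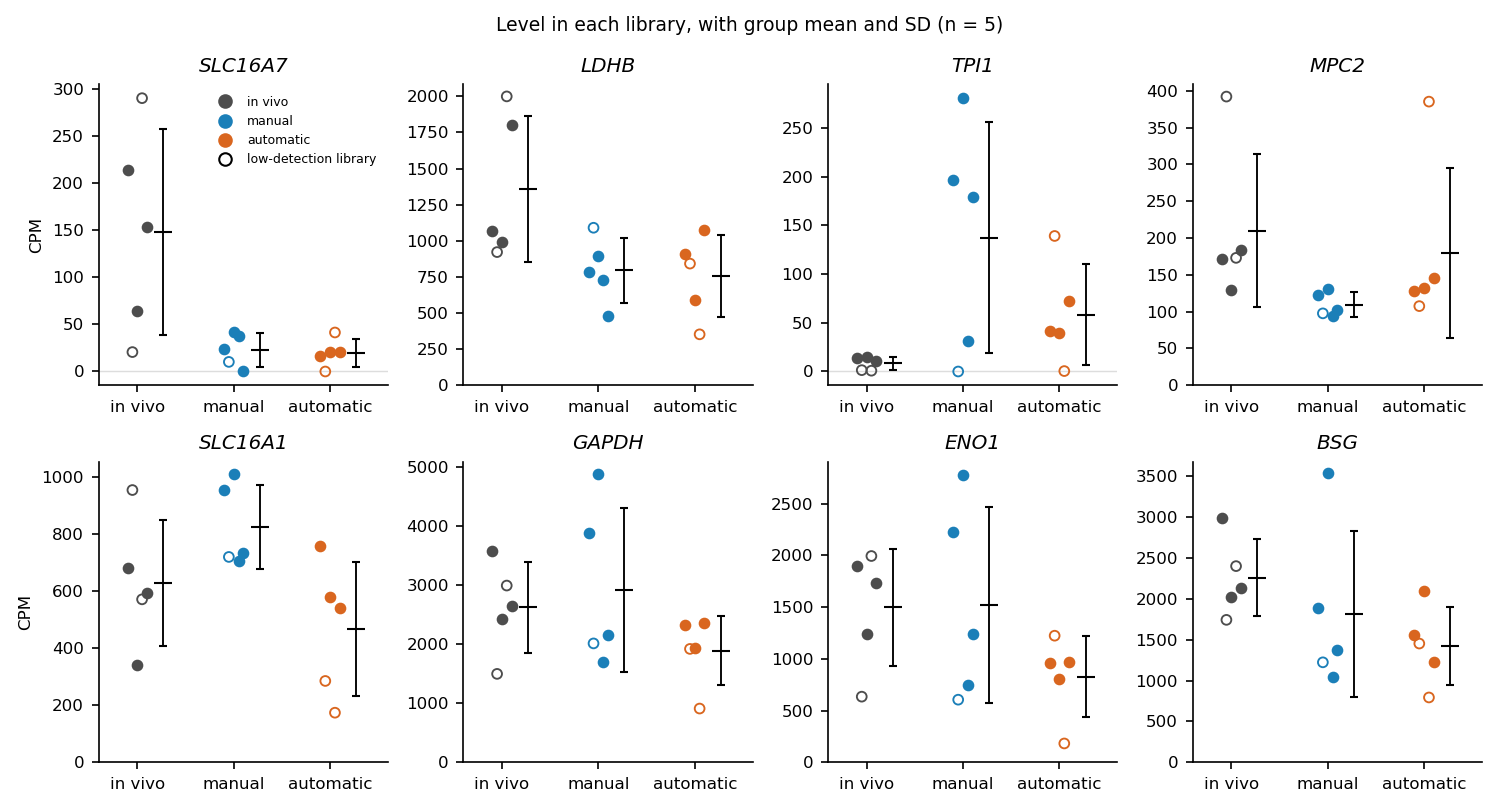
CPM of 8 members on linear axes, with 1 point per library (open for low-detection libraries) and the group mean with SD (n = 5) beside them. TPI1 lies above its in vivo range in 8 of 10 in vitro libraries, and for SLC16A7 4 of 5 in vivo libraries lie above all in vitro libraries.

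Among regulators of the pathway, PFKFB2, PFKFB3 and PFKFB4 were at 0 in 6, 5 and 3 libraries, and HIF1A in 1. HIF1A, the oxygen-sensitive transcription factor that drives many glycolytic genes, lay at 39.1, 31.1, 38.8, 25.7 and 57.0 CPM in vivo, at 89.8, 61.5, 42.4, 105 and 73.0 CPM in the manual group, and at 96.7, 0, 36.1, 334 and 69.4 CPM in the automatic group. Its extremes, 0 and 334 CPM, were the 2 low-detection libraries of the automatic group. PFKFB2, PFKFB3 and PFKFB4, which make the sugar phosphate that activates phosphofructokinase, averaged 1.06 ± 1.93, 6.52 ± 6.47 and 22.4 ± 27.6 CPM in vivo. The same genes averaged 5.85 ± 6.38, 7.41 ± 6.92 and 34.5 ± 31.8 CPM in the manual and 9.71 ± 15.1, 6.84 ± 7.02 and 53.1 ± 34.6 CPM in the automatic group. PFKFB3 was at 0 in all 5 low-detection libraries and in no other. All 4 regulators lay above their in vivo level in vitro, 3 of 4 without the low-detection libraries.

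At pyruvate entry, PDHB (a subunit of the first component of pyruvate dehydrogenase) took the most counts. It lay at 944, 523, 579.8, 805 and 828 CPM in vivo, at 1118, 719, 715, 604 and 737 CPM in the manual group, and at 815, 946, 623, 481 and 821 CPM in the automatic group. Its 95% interval bounded it within 2-fold in each of the 4 comparisons. PDHA1, the partner subunit, averaged 267 ± 113, 181 ± 119 and 235 ± 70.2 CPM. MPC1, a subunit of the mitochondrial pyruvate carrier, averaged 565 ± 209.6, 444 ± 62.3 and 548 ± 189 CPM. Its partner MPC2 lay at 171, 392, 129, 173 and 184 CPM in vivo, at 123, 97.6, 131, 94.3 and 102 CPM in the manual group, and at 127, 107, 132, 385 and 146 CPM in the automatic group. In 4 of 5 manual libraries MPC2 lay below every in vivo library, with a log2 difference of -0.94 ± 0.42 (edgeR adjusted p = 0.9997). Without the low-detection libraries, which include the 2 highest values (in vivo 2 and automatic 4), it was -0.53 (adjusted p = 0.715).

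The kinases PDK1 and PDK3, which inhibit pyruvate dehydrogenase, averaged 56.9 ± 71.5 and 88.0 ± 134 CPM in vivo, 55.1 ± 13.4 and 31.0 ± 17.6 CPM in the manual group, and 55.5 ± 46.3 and 44.4 ± 15.1 CPM in the automatic group. The highest in vivo value of both was in in vivo 2, a low-detection library, at 184 CPM for PDK1 and 324 CPM for PDK3. Without the low-detection libraries PDK1 spanned 14.4 to 32.8 CPM in 3 in vivo libraries and 32.3 to 83.9 CPM in 7 in vitro libraries. The log2 difference was then 1.14 ± 0.42 (edgeR adjusted p = 0.514), against -0.04 with all libraries. HK2 in the same libraries spanned 84.1 to 87.2 CPM in vivo and 81.3 to 234 CPM in vitro, with a difference of 0.84 ± 0.34 (edgeR adjusted p = 0.559). PDK1 and HK2 were singled out after these values were seen.

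Across all members in vitro against in vivo, 18 of 33 lay lower, with a median of -0.04, against 51.8% of all genes and a median of -0.04. The count was 18 for automatic (median -0.04, all genes 52.4% and -0.06) and 13 for manual against in vivo (median 0.16, all genes 50.6% and -0.02). By role in vitro, 4 of 9 upper and 4 of 6 lower glycolytic members, all 4 lactate members and 5 of 6 pyruvate entry members lay lower. Among those counted as lower, SLC16A1 lay at -0.016 and PDK1 at -0.04. Under scaling to total counts without TMM factors the all-gene median shifted from -0.04 to 0.10, and 3 of 4 lactate and 3 of 6 pyruvate entry members lay lower. With limma-voom and quality weights these counts were 3 of 4 and 2 of 6. Without the low-detection libraries they were 3 of 5, as SLC16A3 was then tested too, and 3 of 6. No member separated the groups completely: 0 of 33 had non-overlapping groups in any comparison with all libraries, where 0.475% of all genes did in vitro against in vivo, 0.665% in automatic against manual, 2.07% in automatic against in vivo and 1.36% in manual against in vivo.

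When the 5 low-detection libraries were left out, 34 members and 12329 genes were tested. In the in vitro comparison 0 members were called (0.0568% of all genes), 5 had an unadjusted p under 0.05 (8.33% of all genes), and 2, TPI1 and SLC16A7, did not overlap (4.14% of all genes). In automatic against manual, 0 members were called (0.00811%), 3 had an unadjusted p under 0.05 (TPI1, SLC2A5 and ENO1, all lower after automatic denudation, 4.08% of all genes), and SLC2A5 alone did not overlap (5.61%). SLC2A5 then lay at 565 to 1195 CPM in 4 manual and 254 to 527 CPM in 3 automatic libraries.

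The intervals show what these libraries could resolve. In vitro against in vivo, 8 of 33 members were bounded within 2-fold by their 95% interval: SLC2A3, SLC2A5, GAPDH, PGK1, PGAM1, SLC16A1, PDHB and MPC1. That was 24.2%, against 4.11% of all genes. Within 4-fold 18 were bounded, or 54.5% against 26.8% of all genes. For automatic against manual 4 were bounded within 2-fold (PGK1, LDHB, PDHB and MPC1) and 19 within 4-fold. For the remaining members the interval reached past 4-fold, PFKM and PFKP among them. The in vitro comparison averages the 2 cultured groups, so its bound does not hold for each group alone. Manual against in vivo bounded SLC2A5, ALDOA, GAPDH, PGAM1 and PDHB within 2-fold. Automatic against in vivo bounded SLC2A3, PGK1, PDHB and MPC1, so PDHB alone was bounded in both.

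Isozymes were also compared as ratios within a library. With the added 1 CPM, a ratio in which 1 gene is at or near 0 follows the scaled level of the other gene, as in most libraries for ENO2 over ENO1 and SLC16A3 over SLC16A1. Of 8 ratios on log2(CPM + 1) in 2 comparisons, 0 of 16 tests passed after Benjamini-Hochberg adjustment (exact two-sided permutation of libraries). HK2 over HK1 was -0.28 ± 0.93 in vivo, 2.26 ± 2.12 after manual and 1.13 ± 1.93 after automatic denudation, as log2 ratios (SD). In vitro it was higher by 1.98 (exact permutation p = 0.0539, adjusted p = 0.420). Its highest values, 5.83 in manual 2 and 4.06 in automatic 4, came from low-detection libraries with HK1 at 0.844 and 0.277 CPM. So did its lowest value, -1.36 in automatic 2. Outside the low-detection libraries this ratio spanned -1.10 to 0.40 in vivo, 0.23 to 2.23 in the manual and 0.80 to 1.16 in the automatic group. PFKP over PFKL differed by 2.37 between automatic and manual (exact permutation p = 0.0159, adjusted p = 0.254), but automatic 2 had both genes at 0, which sets its ratio to 0, and PFKP was at 0, 0.0314 and 0.105 CPM in manual 2, 4 and 5. Without the low-detection libraries that difference was 1.69 (exact permutation p = 0.0571). In those libraries the ratio spanned -3.91 to -3.23 in the automatic and -5.97 to -4.33 in the manual group. With all libraries, the smallest p possible is 0.00794 for automatic against manual and 0.000333 for in vitro against in vivo. Fewer libraries allow fewer splits, so without the low-detection libraries the smallest possible p is larger.

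**Figure D5:**
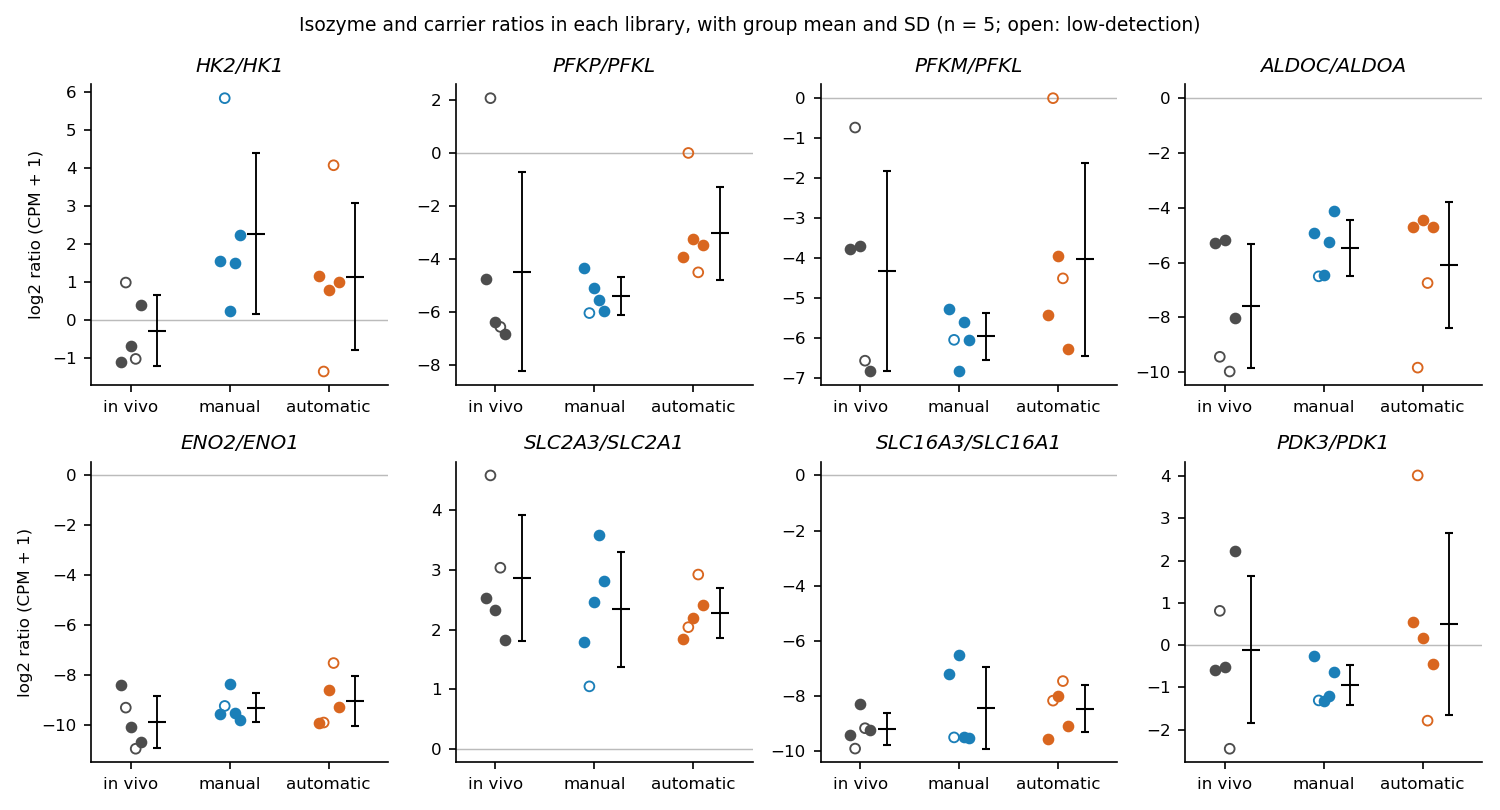
Log2 ratios of 8 isozyme or carrier pairs, from CPM + 1, with 1 point per library (open for low-detection libraries) and the group mean with SD (n = 5). HK2 over HK1 averages -0.28 in vivo, 2.26 in the manual and 1.13 in the automatic group, and the groups overlap. The highest manual, the highest automatic and the lowest automatic point of this ratio are low-detection libraries.

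Genes adjoining the pathway were counted in 7 lists with 93 genes tested, of which 0 were called in any comparison. In vitro against in vivo, 8 had an unadjusted p under 0.05 (8.60%, against 6.13% of all genes), 6 lower and 2 higher. All 8 genes of the pentose phosphate pathway lay lower in vitro, with a median of -0.29, but 6 of 8 did without TMM factors and 7 of 8 without the low-detection libraries. In this list 0 genes had an unadjusted p under 0.05. Of the citrate cycle and pyruvate dehydrogenase list 13 of 25 lay lower, of the NADH shuttles 6 of 9, of glycogen and sugar side branches 7 of 14, of gluconeogenesis 2 of 4, of the hypoxia response 8 of 18, and of other isozymes and carriers 12 of 15. Without the low-detection libraries the hypoxia response had 3 of 18 lower (median 0.37, against 0.14), other isozymes and carriers 10 of 17 (median -0.33, against -0.61), and the citrate cycle list 16 of 25. Without TMM factors the citrate cycle list had 8 of 25 lower. AKR1B1, the aldose reductase that turns glucose into sorbitol, averaged 630.1 ± 301 CPM in vivo, 429 ± 114 CPM in the manual and 186 ± 80.5 CPM in the automatic group. Its log2 difference was -1.16 ± 0.32 in vitro against in vivo (edgeR adjusted p = 0.411) and -1.21 ± 0.38 in automatic against manual (edgeR adjusted p = 0.9999). HKDC1, a hexokinase-like enzyme, averaged 94.4 ± 57.8, 36.6 ± 20.2 and 17.99 ± 10.8 CPM, with a difference of -1.88 ± 0.59 in vitro (edgeR adjusted p = 0.553). The summed trophectoderm markers averaged 24718, 17036 and 9598 CPM in the same order, and their part in these values was not tested.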

How the data were processed

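Poly(A) RNA of 15 libraries (5 per group) was measured, with strand-specific libraries and adaptors carrying molecular identifiers, per the labels' protocols. The estimated counts were deposited as whole numbers in 1 gene table, unscaled. The submitters' processing notes name FastQC, fastp and kallisto (no versions). Which transcripts and build were used, and how molecular identifiers were treated, is not given in the sources used here. A line without a gene name held 0 values and was left out. Rounding changed 0 values. Of the symbols 17059 matched ARS-UCD2.0.

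Tests used edgeR 4.0.16 in R 4.3.3 (TMM, filterByExpr, robust estimateDisp, glmQLFit and glmQLFTest) in 1 fit over all libraries with a mean per group, and Benjamini-Hochberg adjustment over 11578 genes at 0.05. The in vitro contrast is the mean of both cultured groups minus in vivo. Standard errors are the log2 difference divided by the square root of F. Isozyme ratios used log2(CPM + 1). DESeq2 1.42.0 and limma 3.58.1 were alternatives. Scripts were tested on simulated data.

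The members, the lists, the rule for named genes and the threshold of 9000 genes for low-detection libraries were chosen with earlier results of these data known. Log2 differences are given for members with an unadjusted p under 0.05, at most 6 per comparison, or else the 3 with the smallest p. Values in every library are given for these and for the member with most counts in each role. Genes of the 7 adjoining lists are named at a p under 0.01. Counts of non-overlapping groups and counts by role and list under other settings were added after seeing the data. So were the values of PDK1, HK2 and SLC2A5 and the ranges of isozyme ratios without low-detection libraries.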

Additional observations from a re-analysis of the deposited data

Results flagged for a closer look

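In groups of 5 libraries, 15 of 102 combinations of member and group held a library far from the other 4 on the log2(CPM + 1) scale. Of these 15, 12 lay in low-detection libraries. The rule flags about 1 in 20 for independent normal values, but members share libraries and some are near 0. No excess over that rate is therefore read from the count. Automatic 4 stood low for 8 members: SLC2A8 at 0.553, HK1 at 0.277, ALDOA at 278, TPI1 at 0.442, GAPDH at 911, ENO1 at 183, PKM at 347 and PFKFB4 at 0 CPM. The same library stood high for MPC2 at 385 CPM, against 107 to 146 CPM in the other 4. In vivo 2 stood low for HK1 at 2.22 CPM and PFKL at 1.30 CPM, against 62.8 to 188 CPM and 93.8 to 150.2 CPM. Automatic 2 stood low for SLC16A7 at 0, against 15.97 to 41.4 CPM. Outside the low-detection libraries, in vivo 1 stood high for ENO2 at 4.55 CPM, and SLC16A3 was above 0 in a single library of its group in in vivo 3 at 0.0818 CPM and in automatic 3 at 1.26 CPM.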

How the results depend on the processing

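The number of genes called over the whole table depended on the tool. For automatic against manual it was 0, and 9 with DESeq2, 1 with limma-voom and quality weights and 1 without low-detection libraries. For in vitro against in vivo it was 2, and 86 with DESeq2, 107 with limma-voom, 0 with library-size scaling, 7 with the number of genes detected as a covariate, 7 without low-detection libraries and 0 to 7 leaving out single libraries. For automatic against in vivo it was 2, and 87, 95, 0 and 9 with DESeq2, limma-voom, library-size scaling and without low-detection libraries, 1 without a filter and 0 to 4 leaving out single libraries. For manual against in vivo it was 0, and 44, 2 and 3 with DESeq2, limma-voom and without low-detection libraries. Of the members, limma-voom called 1 in vitro against in vivo, and every other setting called 0 in each comparison.

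Median log2 differences of the members lay near 0 and changed sign. For automatic against manual the median, -0.20, became 0.11 with limma-voom (14 members lower, against 21) and -0.39 to -0.03 leaving out single libraries (17 to 23 members lower). For in vitro against in vivo it became 0.13 with library-size scaling, 0.0205 with limma-voom and 0.0251 without low-detection libraries, and -0.16 to 0.14 leaving out single libraries. For automatic against in vivo it became 0.13, 0.12 and 0.13, and -0.26 to 0.0534, in the same order. For manual against in vivo it became -0.0164 with limma-voom and -0.12 to 0.28 leaving out single libraries, where 10 to 20 members lay lower, 20 of them without manual 3. The cause of these changes was not tested.

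The labels do not say that replicate numbers pair libraries, and the numbers were not treated as pairs in the main fit. Of 15 same-numbered pairs, 8 had a correlation of deviations from the group means over 0.1, an arbitrary cut. All 15 were above 0 (0.00137 to 0.380, against a median of -0.027 for other pairs), and 8 of 15 libraries correlated best with their own number, a hint from the data and not the design. Deviations within a group sum to 0, so the contrast with other pairs is partly built in. Low detection partly follows the number: in vivo 2, manual 2, automatic 2, in vivo 4 and automatic 4 are the low-detection libraries. Its part in these correlations was not tested. With the replicate block, called genes were 0, 8, 7 and 1 in automatic against manual, in vitro, automatic and manual against in vivo, 0 members were called, and the member median became 0.0645 in vitro and 0.0446 for automatic against in vivo.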
